A study of Rattus norvegicus with 36 samples.

Results

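Transporters of the ATP-binding cassette (ABC) family that export compounds from rat hepatocytes were followed across 6 dose groups of HBCD, the usual abbreviation of the brominated flame retardant hexabromocyclododecane. The exporters were Abcc3, Abcc2, Abcb1a, Abcb1b, Abcb4, Abcb11 and Abcg2, and every probe set listed under one of these 7 symbols in the annotation of the array was taken. This gave 8 of the 31042 probe sets tested. Of these, 7 had a single symbol and covered 6 genes, with 2 probe sets for Abcb1a, called here probe set 1 (the brighter over all arrays) and probe set 2. The last was listed under both Abcb1a and Abcb1b, and Abcb1b had no probe set of its own.

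The animals were male Sprague Dawley rats, 7 weeks old at the start, that received corn oil by gavage at 5 ml/kg on each of 5 days. The vehicle group received corn oil alone, and the others HBCD in the oil at 641, 64.1, 6.41, 0.641 or 0.06 mg/kg. All groups had the same diet, and RNA came from the left liver lobe 1 day after the last dose, so the values describe 1 sex and 1 time. Each group held 6 arrays, 36 in all, and this number limits the precision. Replicates are numbered in the labels with no word on whether each array was a rat of its own, so p-values describe the scatter between these arrays, which may be technical. A level is the log2 value of a probe set and is compared between groups only, since probe sets differ in brightness for reasons other than the amount of RNA. A called difference is one with a limma p-value, adjusted over all 31042 probe sets, under 0.05.

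A hepatocyte faces blood on its sinusoidal side and bile at the canaliculus, and its exporters are sorted between these membranes. Abcc3 (MRP3) sits in the sinusoidal membrane and passes glucuronides and other conjugates back to the blood. The other exporters sit in the canalicular membrane. Abcc2 (MRP2) sends glutathione and glucuronide conjugates into bile, Abcb11 (the bile salt export pump) sends bile salts, and Abcb4 flips phosphatidylcholine to the outer leaflet for bile. Abcb1a and Abcb1b encode the P-glycoproteins of rodents, which export lipophilic drugs, and Abcg2 (BCRP) exports sulfates and many drugs. Nuclear receptors of foreign compounds and of bile acids, and the stress factor NRF2, are known regulators of several of these genes.

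Abcb4, Abcb1b and Abcb1a lie next to each other on chromosome 4 of the rat assembly GRCr8, with 0 other protein-coding genes between them. RefSeq promoters of that assembly matched 5 of the 7 genes. No promoter was available for Abcc3 and Abcb11, which were therefore not searched for motifs. The 250 bases before the start site of 4 of them are shown, the 3 neighbours because Abcb1a was called higher in these data and Abcb4 was not, and Abcc2 because it alone among the 5 held a match to the motifs searched. Capitals mark the matches. The windows are chr4:26397649-26397898 (minus strand) for Abcb1a, chr4:26280030-26280279 (minus strand) for Abcb1b, chr4:26164146-26164395 (minus strand) for Abcb4 and chr1:252613625-252613874 (plus strand) for Abcc2.
Abcb1a: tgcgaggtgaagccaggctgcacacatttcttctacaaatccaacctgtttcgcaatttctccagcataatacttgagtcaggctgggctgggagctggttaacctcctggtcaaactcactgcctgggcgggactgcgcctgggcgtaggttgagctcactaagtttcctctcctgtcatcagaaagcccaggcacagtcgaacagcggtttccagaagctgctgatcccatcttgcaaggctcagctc
Abcb1b: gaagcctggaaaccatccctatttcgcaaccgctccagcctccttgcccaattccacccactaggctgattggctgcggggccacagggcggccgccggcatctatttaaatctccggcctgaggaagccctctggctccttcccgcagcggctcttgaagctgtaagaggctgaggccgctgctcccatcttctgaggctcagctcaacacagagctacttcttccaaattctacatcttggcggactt
Abcb4: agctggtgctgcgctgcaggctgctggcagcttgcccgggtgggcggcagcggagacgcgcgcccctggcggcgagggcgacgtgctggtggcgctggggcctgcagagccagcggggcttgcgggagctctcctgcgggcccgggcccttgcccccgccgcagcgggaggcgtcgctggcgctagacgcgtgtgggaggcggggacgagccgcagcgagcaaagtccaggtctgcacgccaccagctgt
Abcc2: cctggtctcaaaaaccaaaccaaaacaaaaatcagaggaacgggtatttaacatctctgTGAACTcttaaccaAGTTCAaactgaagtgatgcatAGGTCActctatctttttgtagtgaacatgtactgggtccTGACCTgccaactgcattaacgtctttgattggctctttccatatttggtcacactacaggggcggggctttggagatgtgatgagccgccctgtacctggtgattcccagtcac

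The motifs were AGTTCA and AGGTCA, core letters of nuclear receptor sites, and TGACNNNGC, the core of the antioxidant response element that NRF2 binds, each searched on both strands. The Abcc2 window held 2 matches to AGTTCA and 2 to AGGTCA. The windows of Abcb1a, Abcb1b, Abcb4 and Abcg2 held none of the 3. Among 33469 rat promoters of the same length, 12.2% held AGTTCA, 14.1% AGGTCA and 10.1% TGACNNNGC. A match describes letters only, and no match says only that these letters are absent from this window.

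The design compares each dose with vehicle. At 641 mg/kg, 4 of the 8 exporter probe sets were called, all higher: Abcc3, both probe sets of Abcb1a and the probe set shared by Abcb1a and Abcb1b. The last 3 read the same pair of related genes and are not separate findings. Over all probe sets 1.65% were called at this dose, 1.13% higher and 0.512% lower. At 64.1, 6.41, 0.641 and 0.06 mg/kg, 0 of the 8 were called. The background there was 0.0419% at 64.1 mg/kg (13 probe sets) and 0.0% at each of the 3 lower doses, so few or no transcripts passed at these doses. At an unadjusted p under 0.05, 1843 probe sets passed at 64.1, 1282 at 6.41, 1477 at 0.641 and 1293 at 0.06 mg/kg. Chance alone passes about 1 in 20 of the 31042, and the counts at the 3 lower doses do not exceed this. Among the exporters, all but Abcb4 and Abcb11 passed at 64.1 mg/kg. Only probe set 2 of Abcb1a passed at 6.41 mg/kg, only its probe set 1 at 0.641 mg/kg and none at 0.06 mg/kg. The count of 511 probe sets called at 641 mg/kg was 335 without replicate 2 of that group, and that of 13 at 64.1 mg/kg was 8 when either vehicle replicate 3 or replicate 4 of the treated group was left out.

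Abcc3, the sinusoidal exporter, rose at the highest dose. Its 6 vehicle arrays ran from 4.63 through a median of 5.19 to 5.69. At 641 mg/kg they ran from 7.03 through 7.55 to 8.44. Every array at 641 mg/kg lay above every vehicle array, and above every array of the other 4 doses. The mean went from 5.20 ± 0.37 to 7.59 ± 0.54 (SD, n = 6 each), a log2 change of 2.40 with a standard error of 0.21 and a 95% interval of 1.97 to 2.82 (limma adjusted p = 9.92e-10). Among the 31042 probe sets this was the rise of rank 2. In bulk liver, more transcript per cell and more cells that carry it cannot be told apart.

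The Abcc3 arrays at 64.1 mg/kg ran from 5.59 through 5.94 to 6.67. All 6 lay above the vehicle mean and 4 above the highest vehicle array, so the groups overlapped. The log2 change was 0.78 with a standard error of 0.21 and an interval of 0.36 to 1.21, which was not called over all probe sets (limma unadjusted p = 0.000685, adjusted p = 0.390). With each array left out in turn the change lay between 0.645 and 0.881, and none of these fits called it.

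At the 3 lower doses Abcc3 stayed within the vehicle range but for a single array. It ran from 4.43 through 5.32 to 5.47 at 6.41 mg/kg, from 4.77 through 4.99 to 5.56 at 0.641 mg/kg and from 4.71 through 5.28 to 5.53 at 0.06 mg/kg. The array at 4.43 was replicate 6 of the 6.41 mg/kg group, the only array of these doses below the lowest vehicle array. Ordered by mean level, the groups ran 0.641 mg/kg (5.05), 6.41 mg/kg (5.19), vehicle (5.20), 0.06 mg/kg (5.23), 64.1 mg/kg (5.98) and 641 mg/kg (7.59). The first 4 did not differ beyond their spread, whose SDs were 0.28 to 0.39. The step from 6.41 to 64.1 mg/kg was 0.79 (limma adjusted p = 0.557), and the step from 64.1 to 641 mg/kg was 1.61 (adjusted p = 5.09e-05). The vehicle level lay close to the array medians of 4.829 to 4.899, and the files hold no detection calls.

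**Figure D1:**
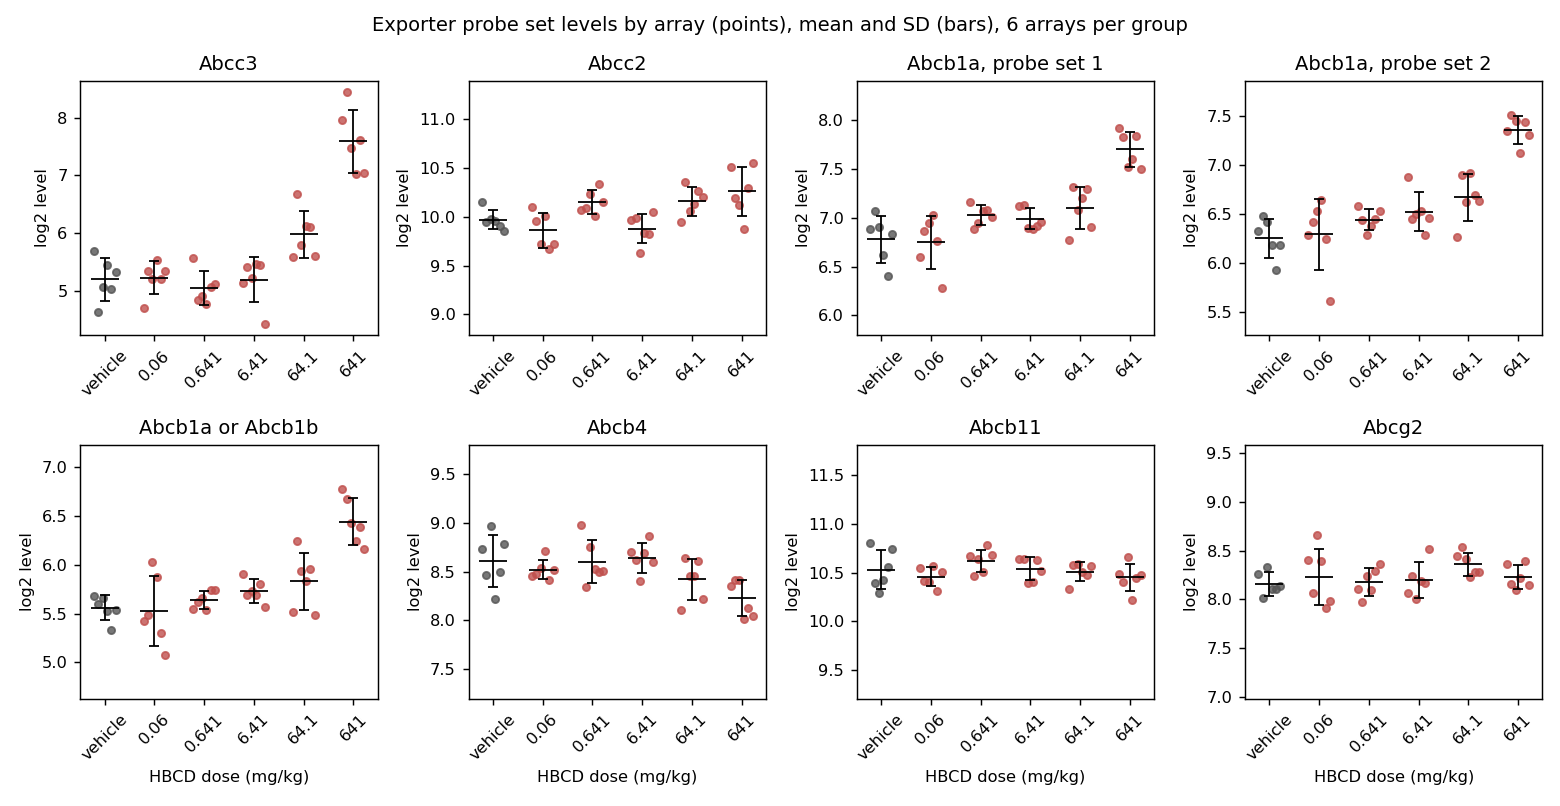
Each panel plots 1 exporter probe set, with the log2 level on the vertical axis and the dose group on the horizontal axis. Points are single arrays, spread sideways by replicate number, and bars are the mean and SD of 6 arrays; the vertical span is wider for Abcc3. Arrays at 641 mg/kg clear the vehicle arrays for Abcc3, both Abcb1a probe sets and the shared probe set, and overlap them for the other 4.

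Abcb1a, a drug-exporting P-glycoprotein of the canalicular membrane, rose as well at 641 mg/kg. Probe set 2 ran from 5.93 through 6.25 to 6.48 in vehicle and from 7.12 through 7.39 to 7.51 at 641 mg/kg. Probe set 1 ran from 6.40 through 6.85 to 7.07 in vehicle and from 7.50 through 7.71 to 7.92 at 641 mg/kg. For neither probe set did the 2 groups overlap. The log2 change was 1.11 with a standard error of 0.12 for probe set 2 (limma adjusted p = 1.64e-07) and 0.92 with a standard error of 0.11 for probe set 1 (adjusted p = 6.09e-07), 2.16-fold and 1.89-fold.

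The probe set shared by Abcb1a and Abcb1b ran from 5.33 through 5.57 to 5.68 in vehicle and from 6.16 through 6.41 to 6.78 at 641 mg/kg, again without overlap. Its log2 change was 0.89 with a standard error of 0.12, or 1.85-fold (limma adjusted p = 1.62e-05). The closely related sequences of Abcb1a, Abcb1b and Abcb4 may hybridise to each other's probes, and how much of the shared signal each gene gave was not tested. In all, 4 of the 8 exporter probe sets had every array at 641 mg/kg above every vehicle array, where 1.06% of all probe sets did. For none of the 8 did every array lie below the vehicle arrays, where 0.654% of all probe sets did.

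At the next lower dose, 64.1 mg/kg, the arrays ran from 6.26 through 6.66 to 6.92 for probe set 2, from 6.77 through 7.14 to 7.32 for probe set 1 and from 5.49 through 5.89 to 6.24 for the shared probe set, overlapping vehicle in each case. Both Abcb1a probe sets at 64.1 mg/kg stood above vehicle by 0.42 (probe set 2) and 0.31 (probe set 1) on the log2 scale and the shared one by 0.27, all with a standard error of 0.11 or 0.12. None was called, with limma adjusted p-values of 0.497, 0.666 and 0.796. Of their 6 arrays each, 5, 4 and 4 lay above the highest vehicle array. No exporter had all 6 arrays at 64.1 mg/kg above vehicle, where 0.184% of all probe sets did. At 6.41 mg/kg the same 3 stood above vehicle by 0.27, 0.20 and 0.18, and at 0.641 mg/kg by 0.19, 0.24 and 0.09. At 0.06 mg/kg they differed from vehicle by 0.04, -0.04 and -0.03. The arrays of that lowest dose were also the most scattered for all 3, with SDs of 0.36, 0.27 and 0.36. Replicate 6 was the lowest in each, at 5.61, 6.28 and 5.08, and replicates 3 and 4 were the highest. None of these differences was called (adjusted p = 0.999 to 1.0).

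Abcc2, which moves conjugates into bile, had changes of mixed sign over the doses. It ran from 9.85 through 9.96 to 10.15 in vehicle and from 9.88 through 10.24 to 10.55 at 641 mg/kg. The ranges overlapped, with 4 of 6 arrays above the highest vehicle array. The log2 change was 0.29 with a standard error of 0.09, or 1.22-fold (95% interval 1.07 to 1.39), which was not called (limma adjusted p = 0.128). Without replicate 4 of the 641 mg/kg group, its lowest array, the change was 0.37 and was called (adjusted p = 0.0286).

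From the lowest to the second highest dose Abcc2 differed from vehicle by -0.10, 0.18, -0.08 and 0.19. Its lowest and highest arrays were 9.67 and 10.10 at 0.06 mg/kg, 10.01 and 10.34 at 0.641 mg/kg, 9.63 and 10.05 at 6.41 mg/kg and 9.95 and 10.36 at 64.1 mg/kg. The groups at 0.06 and 6.41 mg/kg thus sat below the group at 0.641 mg/kg, with ranges that overlapped in part. In the moderated F test over the 5 doses, 5 exporter probe sets passed, Abcc2 (adjusted p = 0.0483) beside Abcc3, both probe sets of Abcb1a and the shared one (adjusted p = 3.95e-10 to 4.73e-05). Over all probe sets 0.773% passed.

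Abcb4, the phospholipid exporter beside the P-glycoprotein genes, had a lower mean at 641 mg/kg. Vehicle arrays ran from 8.22 through 8.61 to 8.97, and arrays at 641 mg/kg from 8.02 through 8.24 to 8.41. All 6 lay below the vehicle mean of 8.61 and 3 below the lowest vehicle array, so the groups overlapped. The log2 change was -0.38 with a standard error of 0.11 and an interval of -0.61 to -0.16, not called (limma adjusted p = 0.0632). It was called after a second quantile normalization (-0.398, adjusted p = 0.0431), with dim probe sets (every group mean under 6) removed (-0.384, adjusted p = 0.0275) and without vehicle replicate 4 (-0.462, adjusted p = 0.0187). At 64.1 mg/kg the difference was -0.19 (adjusted p = 0.880), with 8.11, 8.46 and 8.64 as the lowest, median and highest array. At the 3 lower doses it was between -0.09 and 0.03, with arrays from 8.34 to 8.98.

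Abcb11, the bile salt export pump, ran from 10.29 through 10.49 to 10.80 in vehicle and from 10.22 through 10.46 to 10.66 at 641 mg/kg. The ranges nearly coincided. Across all 6 groups no Abcb11 array lay outside 10.22 to 10.80. The log2 difference was -0.09 with an interval of -0.24 to 0.07 (limma adjusted p = 0.756), so a fall of more than 1.18-fold or a rise of more than 1.05-fold lay outside it. At the other doses the difference was -0.08, 0.09, 0.00 and -0.03, from 0.06 to 64.1 mg/kg.

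Abcg2, the exporter of sulfates, ran from 8.01 through 8.13 to 8.33 in vehicle and from 8.10 through 8.19 to 8.39 at 641 mg/kg. These ranges overlapped too. The log2 difference was 0.07 with an interval of -0.13 to 0.27 (limma adjusted p = 0.860). Its highest mean was at 64.1 mg/kg, where the arrays ran from 8.23 through 8.34 to 8.54 and the difference was 0.20 (adjusted p = 0.814). At the 3 lower doses it was between 0.02 and 0.07. The widest spread was again at 0.06 mg/kg, where arrays ran from 7.91 through 8.23 to 8.66.

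**Figure D2:**
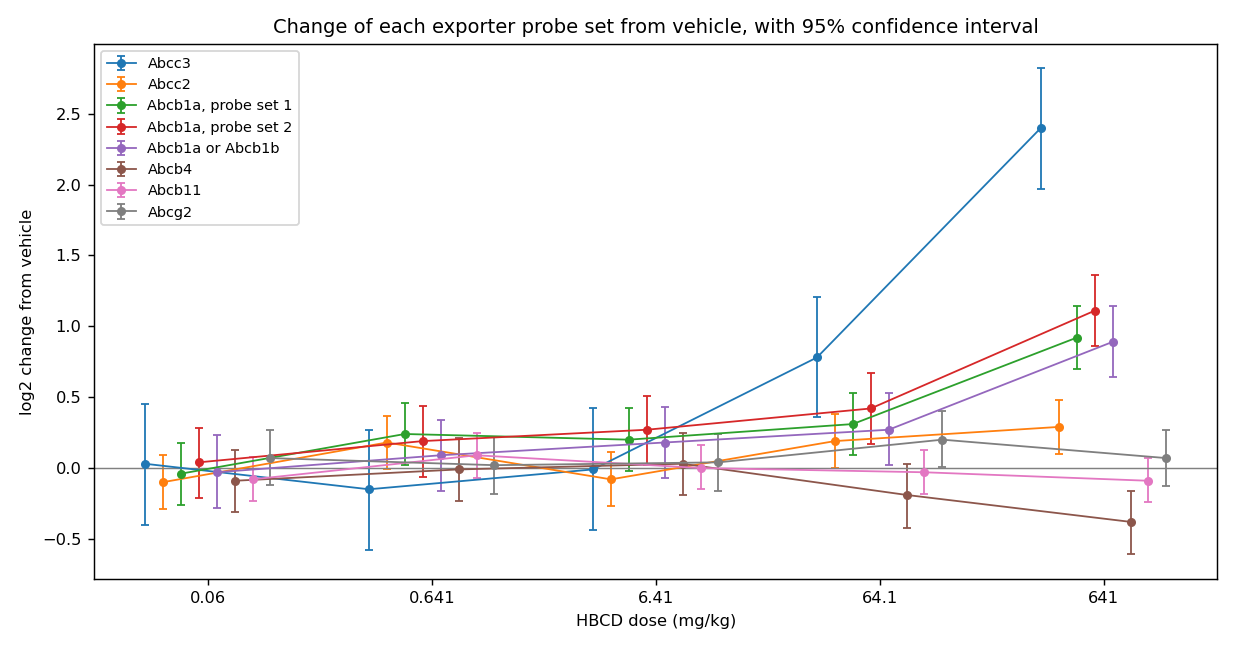
The vertical axis is the log2 change from vehicle with its 95% confidence interval from limma, and the horizontal axis the HBCD dose in mg/kg, evenly spaced; points of a dose are shifted sideways so that they do not cover each other. Abcc3 reaches 2.40 at 641 mg/kg, the Abcb1a and shared probe sets 0.89 to 1.11, and Abcb4 -0.38.

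The highest dose was also set against the one below it. From 64.1 to 641 mg/kg, the 4 exporter probe sets called against vehicle were called again and the other 4 were not, where 0.242% of all probe sets were called. The steps were 1.61 for Abcc3, 0.69 (adjusted p = 0.00317) and 0.61 (adjusted p = 0.00407) for probe sets 2 and 1 of Abcb1a and 0.61 for the shared probe set (limma adjusted p = 0.0163). The call of the shared probe set was lost without replicate 1 or 6 of the 64.1 mg/kg group or replicate 1 or 2 of the 641 mg/kg group (0.545 to 0.569, adjusted p = 0.0632 to 0.0722), and in a fit of these groups alone (0.613, adjusted p = 0.114). The count of all probe sets called, 75, fell to 43 and 39 without replicates 3 and 6 of the 64.1 mg/kg group and to 32 and 40 without replicates 2 and 5 of the 641 mg/kg group. Abcc2 (0.10), Abcb4 (-0.19), Abcb11 (-0.06) and Abcg2 (-0.13) had adjusted p-values of 0.619 to 0.857. None of the exporters was called between neighbouring lower doses, where 0.0% (0.641 against 0.06 mg/kg and 6.41 against 0.641 mg/kg) and 0.00322% (64.1 against 6.41 mg/kg) of all probe sets were. Abcc2 was 0.28 higher at 0.641 than at 0.06 mg/kg (limma adjusted p = 1.0) and differed by -0.27 from there to 6.41 mg/kg (adjusted p = 0.967).

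The sinusoidal exporter was then compared with each canalicular one. Abcc3 was the only sinusoidal exporter of the set, so a difference concerns this gene and does not describe a side of the cell. In each array the log2 level of the canalicular probe set was subtracted from that of Abcc3, and the 6 treated arrays were compared with the 6 vehicle arrays by a two-sided exact permutation test. This contrasts their changes, not their amounts. The shared probe set stood in for Abcb1b, which was not measured by itself. With 6 canalicular probe sets and 5 doses, 30 comparisons were made and adjusted together. The 924 splits allow no p below 0.002165.

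At 641 mg/kg Abcc3 had risen more than each of the 6 probe sets, of which those of Abcb1a and the shared one are not separate findings. The excess was 2.78 ± 0.25 (SE) over Abcb4, 2.48 ± 0.25 over Abcb11, 2.33 ± 0.26 over Abcg2 and 2.11 ± 0.27 over Abcc2. Over the exporters that rose themselves it was smaller, 1.51 ± 0.20 over the shared probe set and 1.48 ± 0.26 over Abcb1a (probe set 1). Probe set 2 of Abcb1a stood further above vehicle than probe set 1, by 1.11 against 0.92 at 641 mg/kg and 0.42 against 0.31 at 64.1 mg/kg. The excess over probe set 2 is therefore smaller, and it was not tested. In every one of the 6 comparisons all 6 treated arrays lay above all vehicle arrays, which gave the smallest p the exact permutation test allows, 0.002165, or 0.00812 adjusted. Abcc3 and Abcb1a thus both rose at this dose, and Abcc3 rose further. The 6 comparisons share the same Abcc3 arrays, which alone lay clear of vehicle at this dose, so they are not independent. Over the exporters that were not called, such a separation restates the rise of Abcc3. How many other probe sets would give it was not counted.

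**Figure D3:**
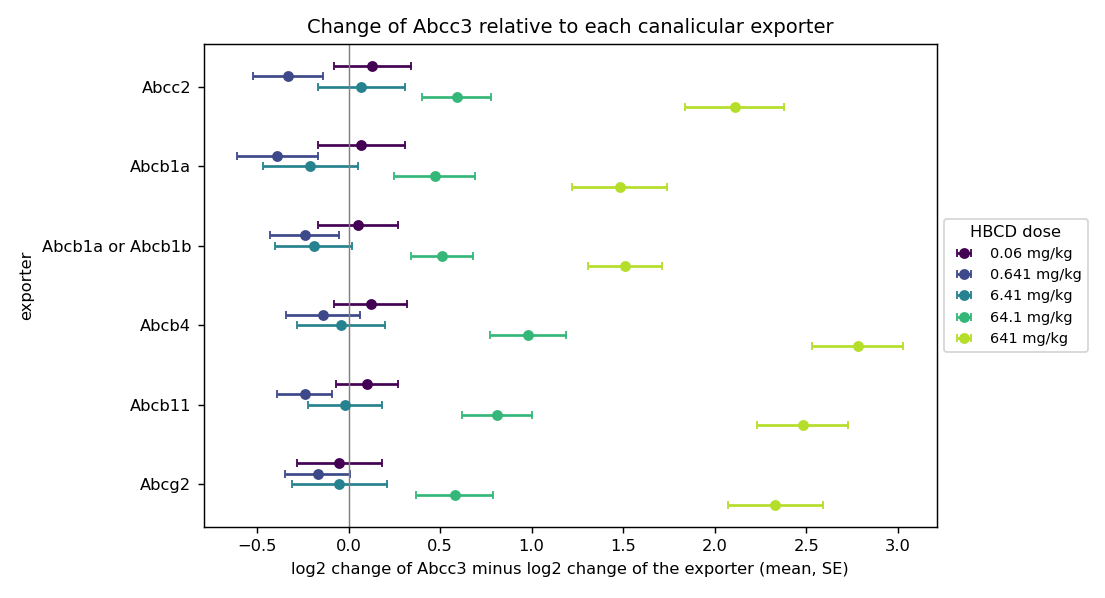
The horizontal axis is the log2 change of Abcc3 minus that of a canalicular exporter, each against vehicle, with its standard error. Rows are exporters (Abcb1a is its probe set 1) and colours are doses. At 641 mg/kg the points lie between 1.48 and 2.78, at 64.1 mg/kg between 0.47 and 0.98, and at lower doses between -0.39 and 0.13.

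The excess of Abcc3 at 64.1 mg/kg was 0.98 ± 0.21 (SE) over Abcb4 and 0.81 ± 0.19 over Abcb11, again with no overlap between groups (both exact permutation adjusted p = 0.00812). It was 0.59 ± 0.19 over Abcc2 and 0.51 ± 0.17 over the shared probe set (both exact permutation adjusted p = 0.026). These p-values were adjusted over the exporter comparisons only, whereas those of limma were adjusted over all 31042 probe sets. By limma, Abcc3, Abcb4 and Abcb11 were not called at this dose (adjusted p = 0.39, 0.88 and 0.99). How many other probe sets would give such an excess was not counted, so it does not establish a rise of Abcc3 at 64.1 mg/kg. Without vehicle replicate 2, or without replicate 2, 3, 4 or 5 at 64.1 mg/kg, the excess over Abcc2 was 0.478 to 0.609 and did not pass (exact permutation adjusted p = 0.0519 to 0.0649). Without vehicle replicate 2, or without replicate 2, 4, 5 or 6 at 64.1 mg/kg, the excess over the shared probe set was 0.385 to 0.513 and did not pass (exact permutation adjusted p = 0.0519 to 0.0649). Those over Abcg2 (0.58 ± 0.21, exact permutation adjusted p = 0.0767) and Abcb1a (0.47 ± 0.22, adjusted p = 0.103) did not pass with all arrays. They passed without vehicle replicate 1 (0.656 and 0.550, exact permutation adjusted p = 0.0433 and 0.0413), Abcg2 also without replicate 1 at 64.1 mg/kg (0.671, adjusted p = 0.0455) and Abcb1a without vehicle replicate 4 (0.552, adjusted p = 0.0354).

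At the 3 lower doses the difference lay between -0.39 and 0.13 and none of 18 passed (exact permutation adjusted p = 0.223 to 0.933). The lowest was that against Abcb1a at 0.641 mg/kg, where Abcc3 stood 0.15 below vehicle and Abcb1a 0.24 above it. That difference passed without vehicle replicate 2 (-0.563, exact permutation adjusted p = 0.0289).

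Levels of cell markers were read beside these values. The mean log2 level of 9 hepatocyte markers was 13.13 to 13.17 on vehicle arrays and 13.03 to 13.12 at 641 mg/kg. Every array at this dose thus lay below every vehicle array by this mean, though the nearest values were 13.12 and 13.13. How often means of other gene lists separate in this way was not counted. Of the 9 markers, 8 had negative changes (median -0.08, against -0.01 for all genes). None was called, where 2.48% of all genes were, and the liver label was borne out on every array. In the 9 other lists, for bile duct, endothelial, macrophage, stellate, lymphoid, neutrophil, erythroid and pancreas cells, only the T cell coreceptor Cd8a was called at 641 mg/kg (1.58-fold lower, limma adjusted p = 0.0176, 1 of 3 probe sets). At 64.1 mg/kg all 8 measured macrophage markers had negative changes, with a median of -0.44 and 0 called. All 8 were negative at 6.41, 0.641 and 0.06 mg/kg too (medians -0.12, -0.17 and -0.15), as were 7 of 8 at 641 mg/kg (-0.15), with 0 called at any dose. Their mean log2 level was 7.79 to 8.75 at 64.1 mg/kg and 8.66 to 8.99 in vehicle, lowest in replicates 2, 3 and 4 (8.07, 7.79 and 7.94). With replicates 1, 5 and 6 alone the change of Abcc3 at 64.1 mg/kg was 0.567, that of Abcb1a 0.274 (probe set 2) and 0.208 (probe set 1), that of the shared probe set 0.0992 and that of Abcb4 -0.3 (limma adjusted p = 1.0 for all 5). The part of macrophage content in the exporters' values at 64.1 mg/kg was not tested.

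Some exporters also varied together between arrays of the same dose. Pairs of other probe sets were not examined in this way, so whether such covariation is particular to exporters was not tested. After each group mean was removed, 6 of 21 exporter pairs were correlated over the 36 arrays by Pearson's r and 8 by Spearman's rho in a permutation test within groups, adjusted over the 21, and r ran from -0.02 to 0.75 over all pairs. The closest were Abcb1a and the shared probe set (r = 0.75, rho = 0.69, permutation adjusted p = 0.00021 and 0.00231; r = 0.69 without the 2 arrays farthest from the median of Abcb1a), which read related transcripts.

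Abcc3 varied with Abcb4 (r = 0.52, rho = 0.57, permutation adjusted p = 0.0148 and 0.0084; r = 0.52 without the 2 farthest arrays) and with the shared probe set (r = 0.51, rho = 0.47, permutation adjusted p = 0.0148 and 0.0331; r = 0.48). Abcb4 varied with the shared probe set (r = 0.48, rho = 0.58, permutation adjusted p = 0.0109 and 0.00462; r = 0.57) and with Abcb1a (r = 0.48, rho = 0.52, permutation adjusted p = 0.0175 and 0.0151; r = 0.54). Abcc2 varied with Abcb11 (r = 0.46, rho = 0.42, permutation adjusted p = 0.0175 and 0.0444; r = 0.40). By rho alone Abcc3 varied with Abcb1a (r = 0.37, rho = 0.43, permutation adjusted p = 0.0879 and 0.0492; r = 0.38) and Abcb4 with Abcb11 (r = 0.38, rho = 0.44, permutation adjusted p = 0.117 and 0.0444; r = 0.36). Abcc3 and Abcb4 therefore covaried within groups, although at 641 mg/kg the mean of Abcc3 was higher and that of Abcb4 lower, the last not called. The probe sets of a pair share an array and its RNA, and no extraction or scan batch was given in the sources used here.

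**Figure D4:**
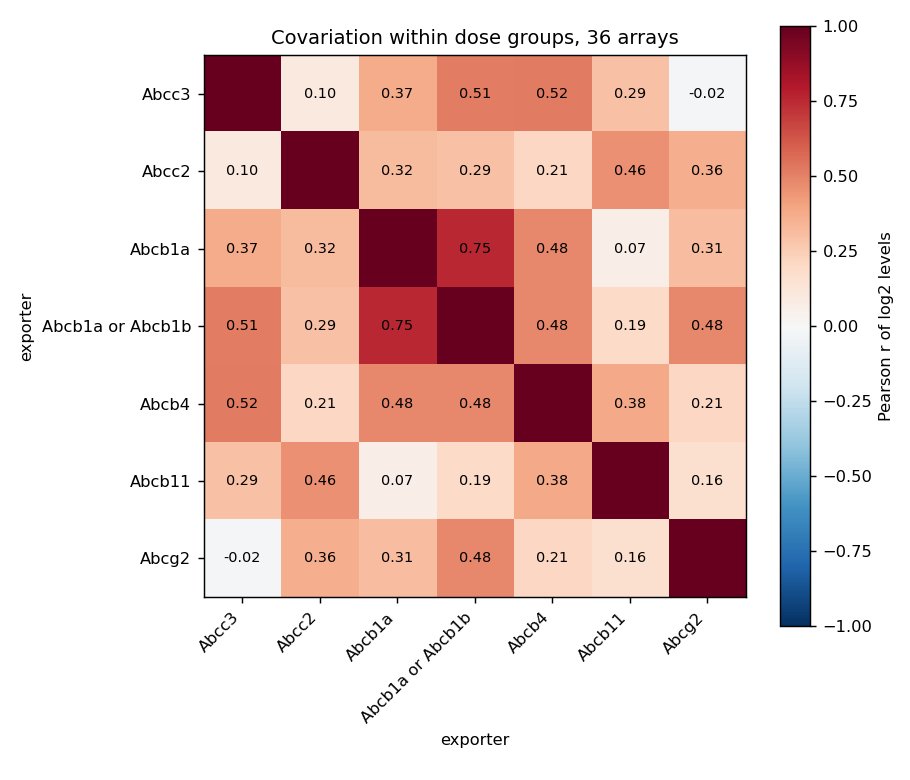
Pearson r of log2 levels over 36 arrays after the mean of each dose group was removed, for the 21 pairs of 7 exporter probe sets (rows and columns; Abcb1a is its probe set 1). The highest value is 0.75, for Abcb1a and the shared probe set, and the lowest -0.02, for Abcc3 and Abcg2.

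The remaining ABC family was compared at 641 mg/kg by gene, where 2.48% of 14217 genes were called and the median log2 change was -0.01. Of 32 measured ABC transporters besides the exporters, 1 was called higher and 0 lower, with changes from -0.39 to 0.40 around a median of -0.06. The called gene was Abcb6, a porphyrin transporter, at 1.24-fold (limma adjusted p = 0.00581; 8.73 against 8.42). Changes as large as those of Abcc3 and Abcb1a were thus not seen among the other measured family members. None of the 32 was called at 64.1 mg/kg, where 0.0703% of all genes were.

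**Figure D5:**
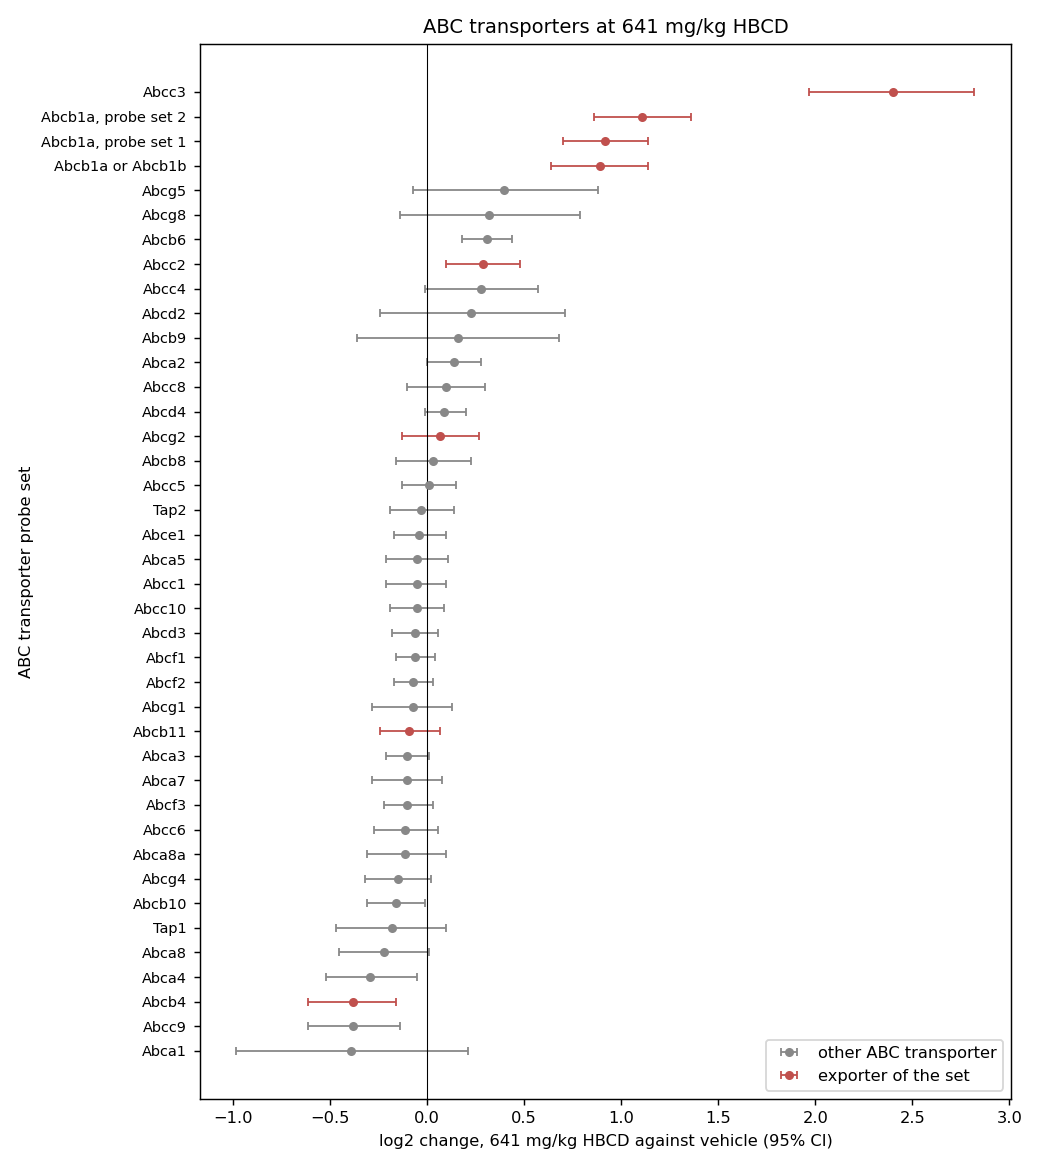
Log2 change at 641 mg/kg against vehicle with its 95% confidence interval (horizontal axis) for the 8 exporter probe sets (red) and 32 other ABC transporter genes (grey), ordered by change. Abcc3, at 2.40, and the Abcb1a and shared probe sets, at 0.89 to 1.11, lie to the right of all grey points, whose highest is 0.40.

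Genes that act before or beside the exporters were read from lists, against the 248 of 14217 genes called higher and 105 called lower at 641 mg/kg (2.48% in all). Carriers outside the ABC family bring bile salts and anions into the hepatocyte or out of it, and of 9 measured, 2 were called higher and 1 lower at 641 mg/kg, with a median of 0.03. The uptake carriers Slco1a4 and Slco1a1 were 1.89-fold and 1.27-fold higher (limma adjusted p = 5.03e-08 and 1.71e-05), and the organic anion transporter Slc22a8 was 1.28-fold lower (adjusted p = 0.00536). Conjugating enzymes make the glucuronides, sulfates and glutathione conjugates that Abcc2 and Abcc3 carry. Of 16 measured, 8 were called higher and 1 lower, with a median of 0.41. The lists were chosen with earlier results of these data known, so these counts describe the lists and do not test enrichment. The 4 of lowest p were the glucuronosyltransferases Ugt2b1 (2.13-fold) and Ugt2a1 (1.97-fold) and the glutathione transferases Gsta3 (5.23-fold) and Gsta4 (a log2 change of 0.59), with limma adjusted p-values of 5.77e-10 to 1.98e-07. The sulfotransferase Sult1a1 was 1.20-fold lower (adjusted p = 0.0107). At 64.1 mg/kg 2 conjugating enzymes were called, Ugt2b1 and Ugt2a1, both higher. By their brightest probe sets 0 of the carriers were called at that dose, Slco1a4 and Slco1a1 both at a limma adjusted p of 0.0502, while 1 of the 2 probe sets of Slco1a4 was called.

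Proteins that anchor exporters at the canaliculus or build it were read in the same way. Of 19 measured, 0 were called higher and 1 lower at 641 mg/kg, with a median of 0.02, where 2.48% of all genes were called. The called gene was the canalicular adhesion protein Ceacam1, 1.13-fold lower (limma adjusted p = 0.0371) in 1 of its 3 probe sets. Of 15 receptors and factors known to regulate exporters, 0 were called in either direction, with a median of -0.02, against the same 2.48%. The lowest p among them belonged to Nr0b2, the bile acid-induced corepressor SHP, at 7.64 against 8.62 (a difference of -0.98, adjusted p = 0.0906), and to the NRF2 inhibitor Keap1 (0.19, adjusted p = 0.128).

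The genes whose dose pattern was most like that of Abcc3 were ranked by the root mean square difference in log2 change over the 5 doses, among 14211 genes. The closest were Gsta3 (0.32), the carboxylesterase Ces2c (0.39), the sulfotransferase Sult2a6 (0.45), the monooxygenase Cyp3a23-3a1 (0.52) and the retinaldehyde dehydrogenase Aldh1a1 (0.55). The measure reflects the size of the changes as well as their shape. At the 3 lower doses Ces2c and Sult2a6 stood above vehicle by 0.24 to 0.53, where Abcc3 changed by -0.15 to 0.03. From the lowest to the highest dose Gsta3 changed by -0.07, 0.32, 0.48, 1.00 and 2.39, where Abcc3 changed by 0.03, -0.15, -0.01, 0.78 and 2.40. Their changes lay furthest apart at 0.641 and 6.41 mg/kg. Neither gene was called at these doses, and the gap between them was not tested. All dose comparisons share the vehicle arrays, and the likeness is a description with no test.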

How the data were processed

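Rat liver RNA was hybridised to 36 Affymetrix 3-prime expression arrays, and the authors deposited 1 log2 value for each probe set and array. RMA and the affy package are named in the submitters' processing notes, with versions not given in the sources used here. RMA subtracts background, equalises array distributions and summarises probes, which narrows large differences. No further normalization was applied.

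Control probe sets (57 of 31099) were left out. Of the 31042 tested, 20826 had 1 gene symbol, 436 several and 9780 none. Symbols followed the RefSeq gene table of GRCr8 (20758 matched by gene ID, 2 by accession, 66 kept). Each of 14217 genes was represented by its brightest probe set.

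R/maanova, which the design text names, was not used. Instead limma 3.58.1 in R 4.3.3 fitted the group as single factor to all arrays, two-sided, with p-values adjusted by Benjamini and Hochberg per contrast and calls under 0.05; tested on simulated data, this step returned the changes put in. Differences of exporters and correlations (100000 resamples) used permutation tests in scipy 1.17.1. Deviations from group means on each treated array correlated at r = -0.252 to 0.22 with those on the vehicle array of the same number. Arrays of different numbers were not compared in this way. Arrays of a group correlated at 0.9912 to 0.9965 and 0 were identical.

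The exporters and lists were chosen with earlier results of these data known. Named were all exporters, up to 4 called genes per list and direction at 641 mg/kg with the smallest p (the 2 of smallest p where none was called) and the 5 genes most like Abcc3. Cd8a and the macrophage values were chosen after they were seen. The settings varied were the filter on dim probe sets, array weights, trend and robust moderation, centring on medians, a second quantile normalization, a replicate block, a fit of the compared groups alone, joint adjustment over doses, averaged probe sets and leaving out each array.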

Additional observations from a re-analysis of the deposited data

Results flagged for a closer look

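A single value stood far from its group. Abcc3 in replicate 6 of the 6.41 mg/kg group had a log2 level of 4.43, the lowest of 6, and the gap to its nearest neighbour made up 0.684 of the range of the group, above the 95% critical value of Dixon's test. Chance places about 1 in 20 groups past this value, or 2.4 of the 48 groups examined, so a single one is no more than chance gives.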

How the results depend on the processing

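The 4 exporter probe sets called at 641 mg/kg were called under every alternative run, with Abcc3 between 2.23 and 2.51. Of 1702 alternative values, 1587 were classed as unchanged. For a change or an excess this means the same direction and side of the threshold, and for a count of called probe sets a similar size. The count of all probe sets called at 64.1 mg/kg, 13 as reported, was 28 with dim probe sets (every group mean under 6) removed, 24 with trend and robust moderation, 5 in a fit of the groups compared, 20 with the doses adjusted together, 3 on replicates 1, 5 and 6 alone (an alternative chosen after seeing the data) and 8 to 18 with an array left out. At 641 mg/kg it was 327 in a fit of the groups compared, 225 with joint adjustment and 335 to 507 with an array left out, and 763 with dim probe sets removed. Against 64.1 mg/kg, where all alternatives were added after seeing the data, it was 35, 25 on replicates 1, 5 and 6, and 32 to 95, and 99 with dim probe sets removed. Joint adjustment gave 2 calls at 0.641 and 1 at 6.41 mg/kg. With replicate number as a block, limma called 500 probe sets at 641 mg/kg and 12 at 64.1 mg/kg and changed no exporter's call. A paired exact sign-flip test over 6 pairs left the excess of Abcc3 at 641 mg/kg at 2.11 (Abcc2), 1.48 (Abcb1a), 1.51 (shared), 2.78 (Abcb4), 2.48 (Abcb11) and 2.33 (Abcg2), each at the smallest p that 6 pairs allow (adjusted p = 0.0938). At 64.1 mg/kg it left 0.977 (Abcb4), 0.808 (Abcb11) and 0.507 (shared) at the same adjusted p, and 0.589 (Abcc2) at 0.17. With an array left out, the excess at 64.1 mg/kg ran from 0.478 to 0.672 (Abcc2), 0.299 to 0.552 (Abcb1a), 0.385 to 0.581 (shared) and 0.476 to 0.671 (Abcg2), and passed the exact permutation test in some of these and not in others.

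Only values near 0 changed sign. Median centring gave Abcb4 2.53e-05 at 0.641 mg/kg. At 6.41 mg/kg, repeated quantile normalization gave 0.00128 for Abcc3, -0.00639 for Abcb11 and 0.00767 for the excess of Abcc3 over Abcb11, and array weights gave 0.00473 for Abcc3. With an array left out, changes at 0.06 mg/kg ran from -0.086 to 0.131 (Abcc3), -0.115 to 0.054 and -0.0346 to 0.171 (Abcb1a probe sets 1 and 2), -0.125 to 0.065 (shared) and -0.0107 to 0.139 (Abcg2). At 0.641 mg/kg they ran from -0.0878 to 0.0622 (Abcb4) and -0.0174 to 0.0605 (Abcg2). At 6.41 mg/kg they ran from -0.125 to 0.141 (Abcc3), -0.0456 to 0.104 (Abcb4), -0.045 to 0.0576 (Abcb11) and -0.0249 to 0.0806 (Abcg2), and at 64.1 mg/kg from -0.0751 to 0.0275 (Abcb11). The excess of Abcc3 ran at 0.06 mg/kg from -0.104 to 0.149 (Abcb1a), -0.0689 to 0.157 (shared) and -0.13 to 0.0887 (Abcg2), and at 6.41 mg/kg from -0.038 to 0.258 (Abcc2), -0.142 to 0.0993 (Abcb4), -0.1 to 0.134 (Abcb11) and -0.134 to 0.166 (Abcg2). The cause of these changes was not tested. Without detection calls, dim probe sets were not separated from background.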
